A study of Homo sapiens with 14 samples.

Results

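The module of ribosome biogenesis and RNA polymerase I was taken as 42 named genes, all found among the 23040 genes of the expression table, and all 42 passed the filter of at least 1 RPKM in at least 2 libraries that left 13427 genes for testing. RPKM is the number of reads per kilobase of gene, scaled to the mapped reads of the library. The genes were chosen by name, for their known roles in making ribosomes, with earlier results of these data known. They fell into 8 role groups, with 7 members in RNA polymerase I and its factors, 2 in box C/D ribonucleoproteins, 3 in box H/ACA ribonucleoproteins, 6 among nucleolar scaffold and chaperone proteins, 8 in the small subunit processome, 5 in late small subunit maturation, 7 in large subunit assembly, and 4 among nucleolar helicases, methylation and other genes.

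Total RNA was sequenced from serum-starved Panc-1 and AsPC-1 cells, which are established lines of human pancreatic carcinoma. Each line had 1 library after EGF (50 ng/ml, the classical ligand of the receptor EGFR) for 1, 5 and 24 h, 1 library after human RNase 5, also called angiogenin (ANG, 1 µg/ml), for 1, 5 and 24 h, and 1 mock library. The labels gave no time for mock and no batch, and the doses of the ligands differed in mass. No condition was repeated within a line, so each line, ligand or time served as the repeat of another and p-values speak only of the scatter among the 14 libraries.

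RNA polymerase I transcribes the precursor of the ribosomal RNAs in the nucleolus, where small nucleolar ribonucleoproteins modify it and large assemblies of processing factors cleave it and fold it into the small and large ribosomal subunits. The genes for these factors are often expressed together in growing cells, and the transcription factor MYC, which binds the sequence CACGTG, is a known activator of many of them. Angiogenin is itself known to enter the nucleolus and to promote transcription of ribosomal RNA. The mRNAs of the factors were measured here, and ribosomal RNA was not analysed.

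Panc-1 libraries held 11.2 to 16.9 M reads with a median of 15.2 M, and AsPC-1 libraries 18.9 to 23.9 M with a median of 21.2 M, as worked out from the RPKM step of short genes. A transcript of 2 kb thus gains 0.0209 to 0.0446 RPKM with each read. Every member was far above that step, and the lowest value of any member in any library was 5.23 RPKM. The 8 genes listed for an epithelial cancer line were KRT7, KRT8, KRT18, KRT19, EPCAM, CDH1, CLDN4 and VIM, the last usually a mesenchymal marker. All 8 reached 1 RPKM in both lines, and none of 5 endothelial markers did. Lowest of the 8 in Panc-1 were KRT7 (2.82 to 4.16 RPKM) and EPCAM (4.88 to 5.58 RPKM). Among leukocyte markers PTPRC, CD3E and CSF1R were at or near 0, while CD68 stood at 28.4 to 46.8 RPKM in Panc-1. In AsPC-1 CD68 was at 66.4 to 92.9 RPKM at 1 and 5 h, against 39.4 to 45.1 RPKM in mock and at 24 h (log2 difference 0.85, past the limma threshold). Of the 6 fibroblast markers LUM alone reached 1 RPKM, in AsPC-1, at 26.5 to 30.7 RPKM at 1 and 5 h against 32.9 to 46.3 RPKM in mock and at 24 h (-0.44, past the threshold). The part of these markers in the results was not tested. The libraries of 1 and 5 h stood apart from mock and 24 h of the same line also in 20 markers of the G2 and M phases of the cell cycle. Their summed level was 1210 to 1450 RPKM at 1 and 5 h against 426 to 529 RPKM in mock and at 24 h in Panc-1, and 87.2 to 207 RPKM against 819 to 1150 RPKM in AsPC-1. All 20 were higher at 1 and 5 h in Panc-1 (median log2 difference 1.44) and all 20 were lower in AsPC-1 (median -2.91), and their part in the results on ribosome biogenesis was not tested. Genes under 400 bp took 5.06 to 17.1% of the reads of a library, and 1 and 5 h overlapped with mock and 24 h in both lines. Reads of 8 members cannot be told from those of an overlapping gene unless strand was used (POLR1C, GNL3, MYBBP1A, HEATR1, NOP14, TSR1, BOP1 and PPAN), so their levels are uncertain. In such bulk samples fewer cells of a kind and less RNA per cell cannot be told apart.

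The module was higher at 1 and 5 h than in mock and at 24 h, less so in Panc-1 than in AsPC-1, and in the same direction with EGF and with ANG. To describe this, the 4 libraries of 1 and 5 h (both ligands) were set against the 3 of mock and 24 h within each line, a grouping chosen with earlier results of these data known, and tested with limma on log2(RPKM + 1), with Benjamini-Hochberg adjustment over all 13427 genes and a threshold of 0.05. In Panc-1 24 of the 42 members rose and none fell, where 17% of all tested genes rose and 20.6% fell. In AsPC-1 37 of the 42 rose and 1 fell, where 19.9% of all genes rose and 34.8% fell. The median log2 difference of the members was 0.29 in Panc-1, against -0.03 for all genes, and 0.92 in AsPC-1, against -0.07 for all genes. Log2 differences below are on the log2(RPKM + 1) scale and carry their SE. The Panc-1 count was 14 without the library of 24 h of ANG and 11 without the libraries of 24 h, where 11.7% and 8.99% of all genes rose, and the AsPC-1 count was 34 without those of 24 h, where 14% did.

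Without any model, the lowest of the 4 libraries of 1 and 5 h lay above the highest of mock and 24 h for 28 members in Panc-1 (20.9% of all tested genes) and for 37 in AsPC-1 (19.4%). The reverse held for RRP1B in Panc-1 (25.4% of all genes) and for NHP2 in AsPC-1 (31.5%). The members differed widely in the size of this difference. The labels give no batch, so ligand and culture or collection of the libraries cannot be told apart in this contrast, and neither was tested. METTL1, RRP12, NOP58 and GPATCH4 had the largest differences in Panc-1, and NOP56, NOP2, PNO1 and MYBBP1A had the largest in AsPC-1.

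**Figure D1:**
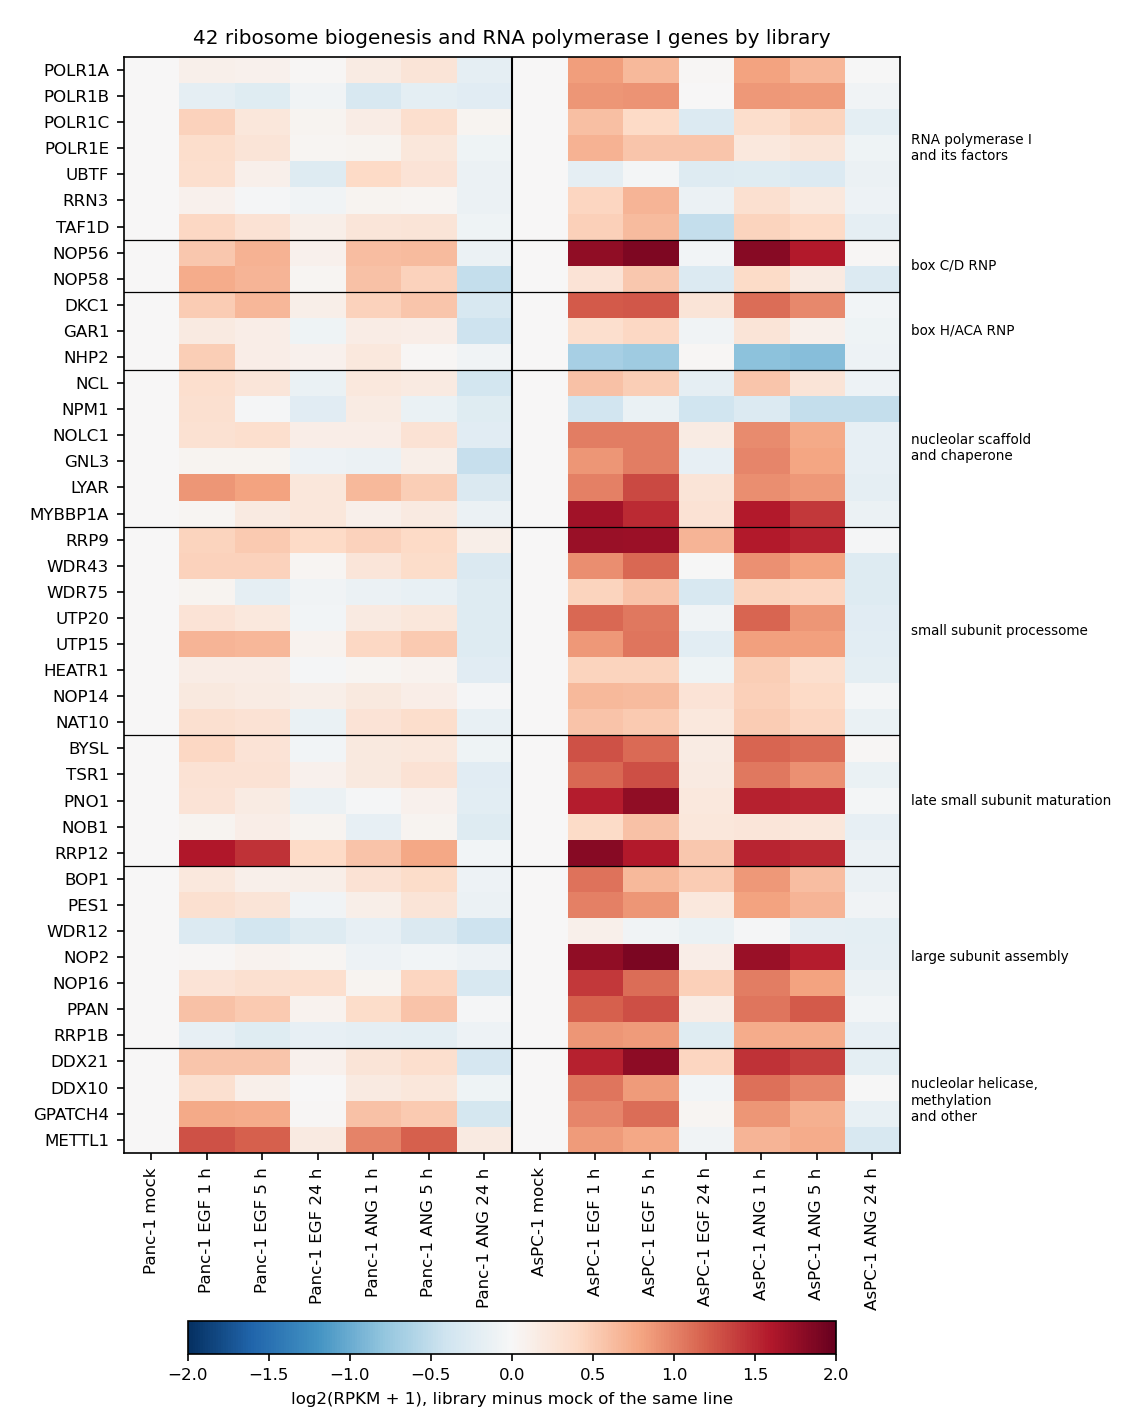
Heat map of the 42 members (down the page, grouped by role) in the 14 libraries, as the log2 difference of RPKM + 1 from the mock library of the same line. The Panc-1 columns of 1 and 5 h are raised for some members, METTL1 and RRP12 most. The AsPC-1 columns of 1 and 5 h are raised for most members with either ligand, with NHP2, NPM1, UBTF and WDR12 as exceptions. The columns of 24 h of EGF are mixed in sign. In those of 24 h of ANG most members are slightly below 0 (median -0.19 in Panc-1 and -0.13 in AsPC-1).

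The upstream sequences of 5 members are shown, chosen by their differences in AsPC-1. NOP56, NOP2, PNO1 and MYBBP1A were the 4 with the largest rise in AsPC-1, and NHP2 was the 1 that fell there. Each is 250 bases before to 50 after the start of the gene from RefSeq (GRCh38.p14), 5′ to 3′ on the gene's own strand, and capitals mark the E-box CACGTG, the sequence that MYC and its relatives bind. The windows are chr20:2652382-2652681 (plus strand) for NOP56, chr12:6568242-6568541 (minus strand) for NOP2, chr2:68157638-68157937 (plus strand) for PNO1, chr17:4555335-4555634 (minus strand) for MYBBP1A and chr5:178153836-178154135 (minus strand) for NHP2.
NOP56: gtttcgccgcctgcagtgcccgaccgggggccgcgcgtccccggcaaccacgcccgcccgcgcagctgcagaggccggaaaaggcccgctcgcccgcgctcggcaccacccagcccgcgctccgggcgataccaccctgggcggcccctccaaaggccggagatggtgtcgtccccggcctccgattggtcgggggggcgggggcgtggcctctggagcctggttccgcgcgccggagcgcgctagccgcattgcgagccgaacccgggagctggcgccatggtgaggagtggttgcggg
NOP2: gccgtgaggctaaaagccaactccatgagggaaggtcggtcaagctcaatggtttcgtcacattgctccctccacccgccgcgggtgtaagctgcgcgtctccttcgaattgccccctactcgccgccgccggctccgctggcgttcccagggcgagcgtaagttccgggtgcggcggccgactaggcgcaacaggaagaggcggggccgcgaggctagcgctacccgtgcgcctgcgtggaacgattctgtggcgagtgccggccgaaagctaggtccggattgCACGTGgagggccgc
PNO1: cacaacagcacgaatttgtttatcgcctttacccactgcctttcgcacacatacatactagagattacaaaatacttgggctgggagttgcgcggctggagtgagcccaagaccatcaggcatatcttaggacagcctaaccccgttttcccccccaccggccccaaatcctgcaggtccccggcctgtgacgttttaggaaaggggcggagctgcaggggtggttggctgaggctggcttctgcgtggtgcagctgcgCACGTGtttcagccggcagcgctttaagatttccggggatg
MYBBP1A: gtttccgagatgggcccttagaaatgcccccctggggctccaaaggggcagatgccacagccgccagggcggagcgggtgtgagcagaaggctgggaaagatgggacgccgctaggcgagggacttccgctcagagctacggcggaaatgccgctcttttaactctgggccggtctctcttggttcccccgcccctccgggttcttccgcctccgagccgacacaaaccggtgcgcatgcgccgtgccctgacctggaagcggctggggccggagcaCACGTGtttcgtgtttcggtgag
NHP2: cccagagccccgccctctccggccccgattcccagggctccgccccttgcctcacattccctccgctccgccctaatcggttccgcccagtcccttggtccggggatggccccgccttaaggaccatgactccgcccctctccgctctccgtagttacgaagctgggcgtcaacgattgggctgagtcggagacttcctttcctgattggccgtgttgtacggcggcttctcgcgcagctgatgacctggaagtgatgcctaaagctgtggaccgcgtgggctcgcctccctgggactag

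The motif CACGTG stood once in the windows of NOP2, PNO1 and MYBBP1A, each time just after the start, and in neither of the windows of NOP56 and NHP2. CACGTG reads the same on both strands, so 1 search covers both, and no other motif was searched. RefSeq promoter entries matched 35 of the 42 members by symbol. At least 1 entry held the motif for 14 of the 35 (40.0%), against 12.6% of the 8872 tested genes with an entry. Counted by entry the shares were 14 of 44 (31.8%) for the members, 9.23% of 13006 for the tested genes and 7.26% of all 35116 promoters of the same length. The 14 were BYSL, DDX21, GAR1, GNL3, LYAR, MYBBP1A, NAT10, NOP14, NOP2, PES1, PNO1, RRP9, UTP20 and WDR43. Their median log2 difference between 1 and 5 h and mock and 24 h was 0.31 in Panc-1, against 0.25 for the 21 members without the motif, and 1.07 in AsPC-1, against 0.70. Over all tested genes these medians were -0.07 with and -0.09 without the motif in AsPC-1. These are descriptions, and a match is not a site.

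Among the genes of RNA polymerase I, 4 of 7 rose in Panc-1 and 5 of 7 in AsPC-1. Of all tested genes 17% rose in Panc-1 and 19.9% in AsPC-1. POLR1B (chr2:113299492-113334727 in hg19, plus strand) encodes a large core subunit of the enzyme. In Panc-1 POLR1B had 12.3 RPKM in mock, 10.7, 10.2 and 11.7 RPKM after EGF, and 9.62, 10.6 and 10.4 RPKM after ANG, in the order 1, 5 and 24 h for each ligand, as below. In AsPC-1 POLR1B had 19.1 RPKM in mock, 36.2, 36.6 and 19.2 RPKM after EGF, and 35.5, 35.3 and 18.2 RPKM after ANG. The Panc-1 groups overlapped, whereas the 4 AsPC-1 libraries of 1 and 5 h lay between 35.3 and 36.6 RPKM and the 3 others between 18.2 and 19.2 RPKM. The difference was -0.14 ± 0.07 in Panc-1 (limma adjusted p 0.119) and 0.90 ± 0.07 in AsPC-1 (adjusted p 1.71e-07).

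POLR1A, the largest catalytic subunit, had in Panc-1 20.9 RPKM in mock, 22.5, 22.2 and 21.3 RPKM after EGF, and 23.5, 25.1 and 18.4 RPKM after ANG. In AsPC-1 POLR1A had 24.1 RPKM in mock, 43.9, 38.5 and 24.4 RPKM after EGF, and 42.7, 38.9 and 23.9 RPKM after ANG. Its groups did not overlap in either line, and the difference was 0.20 ± 0.07 in Panc-1 (limma adjusted p 0.0436) and 0.74 ± 0.07 in AsPC-1 (adjusted p 1.89e-06).

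UBTF, the HMG-box protein that keeps ribosomal DNA open and activates the polymerase, behaved differently in the lines. In Panc-1 UBTF had 34.3 RPKM in mock, 43.5, 36.9 and 28.5 RPKM after EGF, and 45.7, 41.6 and 31.4 RPKM after ANG. In AsPC-1 UBTF had 27.4 RPKM in mock, 24, 26.6 and 22.8 RPKM after EGF, and 22.9, 22.6 and 25.2 RPKM after ANG. All 4 Panc-1 libraries of 1 and 5 h were above the others, whereas the AsPC-1 groups overlapped. The difference was 0.41 ± 0.09 in Panc-1 (limma adjusted p 0.00382) and -0.06 ± 0.09 in AsPC-1 (adjusted p 0.634).

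RRN3, the growth-regulated factor that recruits the polymerase to its promoter, had in Panc-1 29 RPKM in mock, 30.8, 28.5 and 27.7 RPKM after EGF, and 30, 29.9 and 26.6 RPKM after ANG. In AsPC-1 RRN3 had 19.7 RPKM in mock, 26.9, 32.2 and 18 RPKM after EGF, and 24.8, 23 and 18.2 RPKM after ANG. The Panc-1 libraries spanned a narrow range (0.10 ± 0.09, limma adjusted p 0.459), and RRN3 rose in AsPC-1 (0.49 ± 0.09, adjusted p 0.000539), where its 4 libraries of 1 and 5 h lay above the others. TAF1D, a subunit of the promoter factor SL1, had 41.5 RPKM in mock, 55.6, 51.2 and 45.2 RPKM after EGF, and 49.1, 49.8 and 39.1 RPKM after ANG in Panc-1. In AsPC-1 TAF1D had 46.9 RPKM in mock, 65.4, 73.2 and 33.6 RPKM after EGF, and 64.5, 62.1 and 41.5 RPKM after ANG. It rose in both lines, by 0.29 ± 0.10 in Panc-1 and 0.70 ± 0.10 in AsPC-1. POLR1E, a subunit of the polymerase's initiation module, had in Panc-1 51.7 RPKM in mock, 66, 62.1 and 53.4 RPKM after EGF, and 54, 60.5 and 48.6 RPKM after ANG. In AsPC-1 POLR1E had 16 RPKM in mock, 26.6, 24.1 and 23.9 RPKM after EGF, and 18.7, 19.3 and 15 RPKM after ANG. Its AsPC-1 level after 24 h of EGF stayed with those of 1 and 5 h of EGF. POLR1E missed the threshold in both lines, at 0.24 ± 0.15 in Panc-1 (limma adjusted p 0.24) and 0.28 ± 0.15 in AsPC-1 (adjusted p 0.132). POLR1C, a subunit shared with RNA polymerase III, differed by 0.25 ± 0.09 in Panc-1 (limma adjusted p 0.0369) and 0.61 ± 0.09 in AsPC-1 (adjusted p 6.52e-05).

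NOP56 and NOP58, core proteins of the box C/D ribonucleoproteins that methylate ribosomal RNA, rose in both lines. NOP56 (chr20:2633254-2639039 in hg19, plus strand) had in Panc-1 57.2 RPKM in mock, 83.3, 92.9 and 60.9 RPKM after EGF, and 88.4, 89.1 and 52.7 RPKM after ANG. In AsPC-1 NOP56 had 67.2 RPKM in mock, 233, 249 and 64.4 RPKM after EGF, and 241, 203 and 68.4 RPKM after ANG. The groups did not overlap in either line, and the AsPC-1 libraries of 1 and 5 h (203 to 249 RPKM) were the farthest from mock, while those of 24 h were at its level. The difference was 0.63 ± 0.08 in Panc-1 (limma adjusted p 5.85e-05) and 1.78 ± 0.08 in AsPC-1 (adjusted p 3.3e-09). NOP58, its partner, had in Panc-1 55.6 RPKM in mock, 93.8, 89.9 and 57.3 RPKM after EGF, and 84.4, 76.5 and 39.5 RPKM after ANG. In AsPC-1 NOP58 had 79.1 RPKM in mock, 96.1, 115 and 65.3 RPKM after EGF, and 104, 89.3 and 65 RPKM after ANG. NOP58 differed by 0.77 ± 0.13 in Panc-1 and 0.53 ± 0.13 in AsPC-1, both past the threshold. NOP56, NOP58, DKC1, NCL, GNL3, WDR43, TSR1 and PPAN hold small RNA genes that the table lists on their own, so their levels may include such reads.

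The 3 box H/ACA genes, whose complexes convert uridine to pseudouridine, split. DKC1, the pseudouridine synthase dyskerin, had in Panc-1 67.9 RPKM in mock, 97.3, 108 and 74 RPKM after EGF, and 94.3, 100 and 54.2 RPKM after ANG. In AsPC-1 DKC1 had 57.7 RPKM in mock, 136, 138 and 68.9 RPKM after EGF, and 127, 113 and 55.5 RPKM after ANG. It rose by 0.62 ± 0.11 in Panc-1 (limma adjusted p 0.000814) and by 1.07 ± 0.11 in AsPC-1 (adjusted p 3.45e-06), and the groups did not overlap in either line. Its partner GAR1 was a low gene with small differences, at 11.3 RPKM in mock, 13, 12.5 and 10.6 RPKM after EGF, and 12.6, 12.5 and 8.28 RPKM after ANG in Panc-1. In AsPC-1 GAR1 had 10.6 RPKM in mock, 13.7, 14.4 and 10.1 RPKM after EGF, and 12.8, 11.4 and 9.95 RPKM after ANG. GAR1 passed the threshold in both lines, at 0.31 ± 0.10 in Panc-1 and 0.33 ± 0.10 in AsPC-1.

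NHP2, the third protein of that complex (chr5:177576465-177580961 in hg19, minus strand), was the 1 member that fell in AsPC-1; it is given in full because of these values. In Panc-1 NHP2 had 28.2 RPKM in mock, 40.1, 31 and 30.1 RPKM after EGF, and 32.8, 28.6 and 26.8 RPKM after ANG. In AsPC-1 NHP2 had 42 RPKM in mock, 26.2, 25.4 and 42.5 RPKM after EGF, and 23.3, 22.8 and 39.2 RPKM after ANG. The 4 AsPC-1 libraries of 1 and 5 h lay between 22.8 and 26.2 RPKM and the 3 others between 39.2 and 42.5 RPKM, whereas the Panc-1 groups overlapped. The difference was 0.21 ± 0.10 in Panc-1 (limma adjusted p 0.114) and -0.73 ± 0.10 in AsPC-1 (adjusted p 2.76e-05).

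Of the 6 scaffold and chaperone genes 3 rose in Panc-1 and 5 in AsPC-1, beside 17% and 19.9% of all tested genes. NCL, the abundant nucleolar protein nucleolin, had in Panc-1 195 RPKM in mock, 246, 232 and 177 RPKM after EGF, and 226, 222 and 151 RPKM after ANG. In AsPC-1 NCL had 181 RPKM in mock, 273, 255 and 160 RPKM after EGF, and 267, 217 and 169 RPKM after ANG. NCL rose by 0.41 ± 0.10 in Panc-1 (limma adjusted p 0.00698) and by 0.57 ± 0.10 in AsPC-1 (adjusted p 0.000422), a small change at a high level. NPM1, the nucleolar chaperone nucleophosmin, had in Panc-1 208 RPKM in mock, 260, 204 and 177 RPKM after EGF, and 232, 190 and 176 RPKM after ANG. In AsPC-1 NPM1 had 212 RPKM in mock, 163, 194 and 160 RPKM after EGF, and 175, 152 and 152 RPKM after ANG. Its groups overlapped in both lines, with differences of 0.24 ± 0.14 in Panc-1 (adjusted p 0.199) and -0.02 ± 0.14 in AsPC-1 (adjusted p 0.936).

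MYBBP1A, a nucleolar protein that binds MYB and takes part in processing, rose in AsPC-1. In Panc-1 MYBBP1A had 20.9 RPKM in mock, 21.5, 23.7 and 24.7 RPKM after EGF, and 22.5, 23.9 and 19.2 RPKM after ANG. In AsPC-1 MYBBP1A had 15.3 RPKM in mock, 51.1, 44.9 and 18.9 RPKM after EGF, and 47.8, 42.3 and 14 RPKM after ANG. Panc-1 stayed between 19.2 and 24.7 RPKM throughout, while the AsPC-1 libraries of 1 and 5 h lay between 42.3 and 51.1 RPKM and the others between 14 and 18.9 RPKM. The difference was 0.08 ± 0.11 in Panc-1 (limma adjusted p 0.586) and 1.48 ± 0.11 in AsPC-1 (adjusted p 1.34e-07). LYAR, a nucleolar growth-regulating protein, had in Panc-1 11.6 RPKM in mock, 22.3, 21 and 13.7 RPKM after EGF, and 18.8, 16.8 and 9.36 RPKM after ANG. In AsPC-1 LYAR had 17.6 RPKM in mock, 36.2, 45.4 and 21.2 RPKM after EGF, and 34.3, 32.9 and 15.5 RPKM after ANG. Unlike MYBBP1A it rose in both lines, by 0.73 ± 0.15 in Panc-1 (limma adjusted p 0.00158) and 1.00 ± 0.15 in AsPC-1 (adjusted p 6.09e-05). NOLC1, a chaperone of small nucleolar ribonucleoproteins, differed by 0.30 ± 0.10 in Panc-1 and 0.94 ± 0.10 in AsPC-1, and GNL3, nucleostemin, by 0.22 ± 0.11 in Panc-1 and 1.03 ± 0.11 in AsPC-1, where only the Panc-1 value of GNL3 missed the threshold (adjusted p 0.118).

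The small subunit processome is the assembly that folds and cleaves the first part of the precursor. Of its 8 genes 4 rose in Panc-1 and all 8 in AsPC-1, beside 17% and 19.9% of all tested genes. RRP9, a protein of the U3 ribonucleoprotein, had in Panc-1 23.1 RPKM in mock, 31.8, 33.6 and 30.8 RPKM after EGF, and 32.3, 30.9 and 25.1 RPKM after ANG. In AsPC-1 RRP9 had 21.5 RPKM in mock, 73.2, 73 and 35 RPKM after EGF, and 66.9, 64 and 21.1 RPKM after ANG. In Panc-1 the library of 24 h of EGF came close to those of 1 and 5 h, and the AsPC-1 libraries of 1 and 5 h lay between 64 and 73.2 RPKM, with that of 24 h of EGF between these and mock. RRP9 differed by 0.29 ± 0.15 in Panc-1 (limma adjusted p 0.14) and by 1.43 ± 0.15 in AsPC-1 (adjusted p 2.82e-06). UTP15, of the subcomplex that joins the nascent transcript first, had in Panc-1 9.75 RPKM in mock, 16.2, 16.1 and 10.3 RPKM after EGF, and 13.4, 14.5 and 8.02 RPKM after ANG. In AsPC-1 UTP15 had 13.2 RPKM in mock, 25, 28.8 and 11.3 RPKM after EGF, and 24, 24 and 11.3 RPKM after ANG. It rose in both lines, by 0.63 ± 0.10 in Panc-1 and by 1.03 ± 0.10 in AsPC-1. The other 6 (WDR43, WDR75, UTP20, HEATR1, NOP14 and NAT10, the last an RNA acetyltransferase) differed by 0.01 to 0.46 in Panc-1 and by 0.46 to 1.16 in AsPC-1.

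Of the 5 genes of late small subunit maturation 3 rose in Panc-1 and all 5 in AsPC-1, beside 17% and 19.9% of all genes. RRP12 (chr10:99116458-99161127 in hg19, minus strand) encodes a factor needed for export of the subunits. Over both lines together it had the largest difference from mock among the members after 1 and 5 h of EGF. This did not hold in each line, as RRP12 was 3.09-fold above mock at 5 h of EGF in AsPC-1 and NOP2 3.81-fold. In Panc-1 RRP12 had 27.9 RPKM in mock, 86.6, 77.3 and 37 RPKM after EGF, and 42, 48.2 and 26.9 RPKM after ANG. In AsPC-1 RRP12 had 21.8 RPKM in mock, 79.3, 67.3 and 32.3 RPKM after EGF, and 64.6, 63.4 and 20.1 RPKM after ANG. The 1 and 5 h libraries of EGF were the highest in both lines, and in Panc-1 they lay well above those of ANG. RRP12 differed by 0.98 ± 0.23 in Panc-1 (limma adjusted p 0.00455) and by 1.46 ± 0.23 in AsPC-1 (adjusted p 0.000123).

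PNO1, an RNA-binding protein that guides the last cleavage, rose in AsPC-1. In Panc-1 PNO1 had 18.9 RPKM in mock, 23, 21.4 and 17.3 RPKM after EGF, and 18.6, 20.1 and 16.2 RPKM after ANG. In AsPC-1 PNO1 had 12.2 RPKM in mock, 38, 44.2 and 14.3 RPKM after EGF, and 37.4, 37 and 11.8 RPKM after ANG. The Panc-1 groups overlapped, with a difference of 0.24 ± 0.09 (limma adjusted p 0.0623), and the AsPC-1 groups were far apart, with 1.54 ± 0.09 (adjusted p 3.43e-08). NOB1, the endonuclease of that cleavage, differed by 0.09 ± 0.12 in Panc-1 (adjusted p 0.615) and 0.34 ± 0.12 in AsPC-1 (adjusted p 0.0257). The assembly factors BYSL and TSR1 differed by 0.31 and 0.32 in Panc-1 and by 1.11 and 1.09 in AsPC-1.

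Of the 7 large subunit assembly genes 2 rose in Panc-1, where 17% of all tested genes did. In AsPC-1 6 rose, where 19.9% did. NOP2, a cytosine methyltransferase of the large subunit RNA (chr12:6666037-6677480 in hg19, minus strand), had in Panc-1 22.9 RPKM in mock, 23.4, 24.1 and 23.6 RPKM after EGF, and 21.2, 22.1 and 21.2 RPKM after ANG. In AsPC-1 NOP2 had 20 RPKM in mock, 71, 76.1 and 22 RPKM after EGF, and 68.2, 61.6 and 17.5 RPKM after ANG. The 7 Panc-1 libraries spanned only 21.2 to 24.1 RPKM, and AsPC-1 split into 4 libraries of 61.6 to 76.1 RPKM at 1 and 5 h and 3 others of 17.5 to 22 RPKM. The difference was 0.01 ± 0.09 in Panc-1 (limma adjusted p 0.951) and 1.75 ± 0.09 in AsPC-1 (adjusted p 7.17e-09).

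PPAN, a factor of large subunit processing, rose in both lines. In Panc-1 PPAN had 9.62 RPKM in mock, 14.9, 14.2 and 10.2 RPKM after EGF, and 12.7, 14.8 and 9.5 RPKM after ANG. In AsPC-1 PPAN had 10.1 RPKM in mock, 24.3, 26 and 11.3 RPKM after EGF, and 22.3, 25 and 9.67 RPKM after ANG. PPAN differed by 0.49 ± 0.08 in Panc-1 and by 1.16 ± 0.08 in AsPC-1. RRP1B, a nucleolar factor of precursor processing, lay between 11.9 and 12.5 RPKM at 1 and 5 h and between 12.6 and 14.2 RPKM in mock and at 24 h in Panc-1. In AsPC-1 RRP1B lay between 35.8 and 39.5 RPKM at 1 and 5 h and between 17.7 and 21 RPKM in mock and at 24 h. The groups overlapped in neither line, and the difference was -0.10 ± 0.07 in Panc-1 (limma adjusted p 0.279) and 0.94 ± 0.07 in AsPC-1 (adjusted p 2.29e-07). NOP16, which joins early large subunit particles, reached 126 RPKM after 1 h of EGF in AsPC-1, against 46.5 RPKM in mock, and differed by 0.26 ± 0.18 in Panc-1 (limma adjusted p 0.278) and by 0.97 ± 0.18 in AsPC-1 (adjusted p 0.000405). PES1, BOP1 and WDR12 form 1 complex with each other, and their differences were unequal: 0.31, 0.24 and -0.05 in Panc-1 and 0.80, 0.67 and 0.06 in AsPC-1. WDR12 was the 1 gene of the group that did not pass in AsPC-1 (adjusted p 0.642), and it passed in neither line.

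The other 4 genes rose in both lines, where 17% of all tested genes rose in Panc-1 and 19.9% in AsPC-1. METTL1, which methylates guanosine in transfer RNA rather than ribosomal RNA, had in Panc-1 10 RPKM in mock, 25.5, 24.2 and 11.5 RPKM after EGF, and 20.9, 24.1 and 11.5 RPKM after ANG. In AsPC-1 METTL1 had 17.8 RPKM in mock, 32.9, 31.1 and 17 RPKM after EGF, and 29.2, 30.5 and 14.1 RPKM after ANG. It was the member with the largest difference in Panc-1, 1.04 ± 0.09 (limma adjusted p 3.3e-06), and differed by 0.89 ± 0.09 in AsPC-1 (adjusted p 2.71e-06), with no overlap in either line. DDX21, an RNA helicase of the nucleolus, had in Panc-1 120 RPKM in mock, 177, 177 and 128 RPKM after EGF, and 144, 152 and 94.4 RPKM after ANG. In AsPC-1 DDX21 had 70.8 RPKM in mock, 208, 246 and 95.3 RPKM after EGF, and 195, 185 and 61.4 RPKM after ANG. DDX21 was the most abundant of these 4 and differed by 0.51 ± 0.15 in Panc-1 and by 1.46 ± 0.15 in AsPC-1. GPATCH4, a nucleolar G-patch protein, had in Panc-1 12.5 RPKM in mock, 21.9, 21.5 and 12.7 RPKM after EGF, and 19.3, 18.5 and 9.59 RPKM after ANG. In AsPC-1 GPATCH4 had 14 RPKM in mock, 28.4, 31.6 and 14.4 RPKM after EGF, and 26.8, 23.5 and 12.6 RPKM after ANG. GPATCH4 rose by 0.77 ± 0.11 in Panc-1 and by 0.96 ± 0.11 in AsPC-1, and the helicase DDX10 by 0.24 ± 0.08 in Panc-1 and 1.02 ± 0.08 in AsPC-1.

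**Figure D2:**
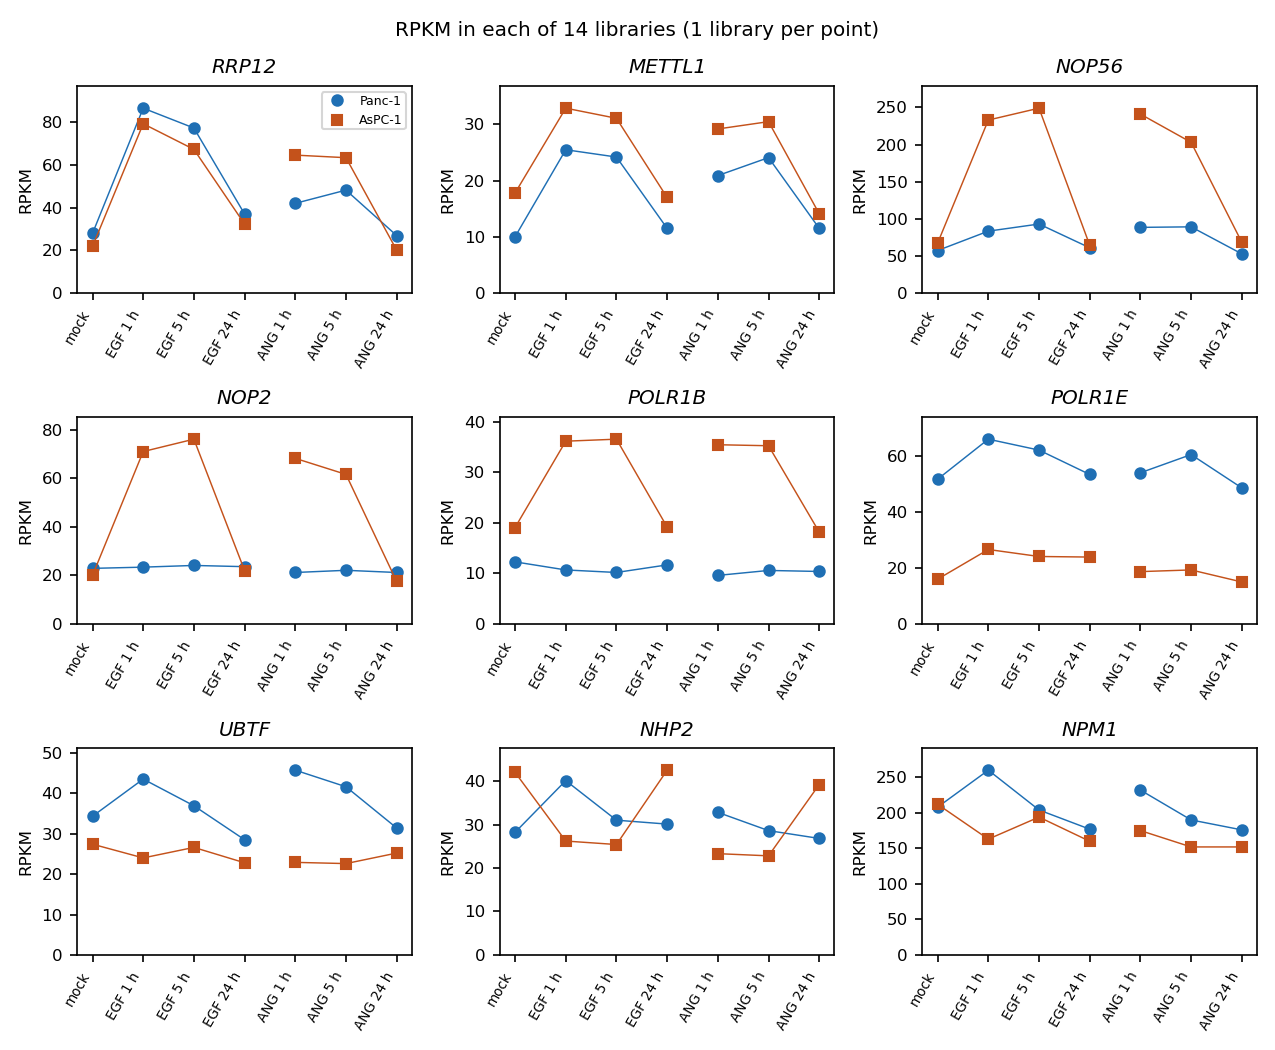
Level (RPKM) of selected members in the 7 conditions of each line, with 1 point a library and mock at the left of the times. RRP12 in Panc-1 is highest after EGF, METTL1 is raised in both lines, and NOP56, NOP2 and POLR1B in AsPC-1 are raised at 1 and 5 h of both ligands and at mock levels at 24 h, while NHP2 moves the other way there.

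The lines differed in how strongly the module was raised. The difference of the differences, Panc-1 minus AsPC-1, was below 0 and past the threshold for 27 members and above 0 for 2, where 21% of all genes were called below and 28.2% above, and its median was -0.47 over the members and 0.05 over all genes. NOP2 (-1.74 ± 0.13, limma adjusted p 1.54e-07), MYBBP1A (-1.40 ± 0.15), PNO1 (-1.31 ± 0.13), NOP56 (-1.15 ± 0.11), RRP9 (-1.14 ± 0.21), RRP1B (-1.04 ± 0.10) and POLR1B (-1.03 ± 0.09) had the most negative values. The 2 above 0 were UBTF (0.47 ± 0.13, adjusted p 0.0098) and NHP2 (0.94 ± 0.14, adjusted p 8.97e-05), and UBTF missed the threshold without the libraries of 24 h. Among the genes that rose in both lines, METTL1 (0.15 ± 0.13, limma adjusted p 0.348), GPATCH4 (-0.19 ± 0.16), LYAR (-0.27 ± 0.21) and RRP12 (-0.48 ± 0.33, adjusted p 0.243) did not pass. Unequal differences in the lines remain possible within those errors. The G2 and M markers moved in opposite directions in the lines, as given above, and their part in the difference was not tested.

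**Figure D3:**
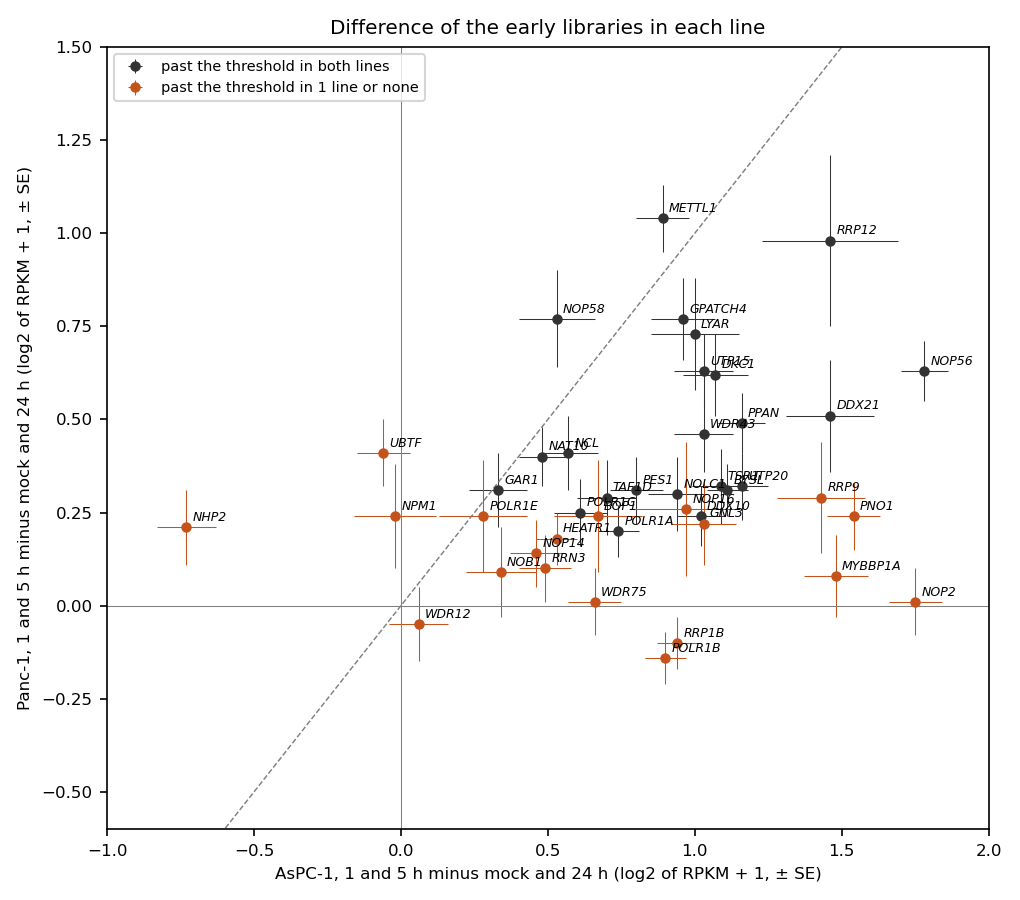
Log2 difference of each member between 1 and 5 h (4 libraries) and mock and 24 h (3 libraries), with Panc-1 on the vertical and AsPC-1 on the horizontal axis, bars of 1 SE and a dashed line of equal difference. Black marks members past the threshold in both lines. Most members lie below the dashed line, and METTL1, NOP58, UBTF, NPM1 and NHP2 lie above it. NHP2 is below 0 past the threshold in AsPC-1 and above 0 in Panc-1. UBTF (-0.06) and NPM1 (-0.02) are slightly below 0 in AsPC-1, not past the threshold.

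Against mock, single conditions gave few calls. Only the 2 lines served as repeats there, and a difference seen in a single line counts as spread. After 1 h of EGF 4 members rose and none fell, where 0.209% of all genes rose and 0.454% fell. They were RRP12 (1.71 ± 0.25, limma adjusted p 0.0406), METTL1 (1.06 ± 0.14, adjusted p 0.0315), LYAR (0.94 ± 0.15, adjusted p 0.0438) and GPATCH4 (0.87 ± 0.13, adjusted p 0.0419). After 5 h of EGF 6 members rose and none fell, where 0.596% of all genes rose and 3.63% fell. They were RRP12 (1.51 ± 0.25, limma adjusted p 0.0241), LYAR (1.06 ± 0.15), METTL1 (0.98 ± 0.14), GPATCH4 (0.93 ± 0.13), DKC1 (0.96 ± 0.19, adjusted p 0.0377) and UTP15 (0.87 ± 0.18, adjusted p 0.0397). NOP56, which rose far more in 1 line than in the other, was at 1.16 ± 0.39 at 1 h and 1.28 ± 0.39 at 5 h (limma adjusted p 0.185 and 0.103). Without a mock library or an EGF library of that time, 1 library remains in a group, so only medians are given. The median of the members then ran from 0.43 to 0.86 at 1 h and from 0.35 to 0.76 at 5 h. With all libraries it was 0.65 and 0.55. At 1 h the count of members called was 2 with no filter on low values and 1 with libraries centred on their medians. It was 0 without the libraries of 24 h, where no gene at all was called.

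ANG gave no member past the threshold at any time. At 1 h 0% of all genes rose and 0.0819% fell, and at 5 h 0% rose and 0.112% fell. The member nearest to the threshold was METTL1, at 0.97 ± 0.14 at 5 h (limma adjusted p 0.0563) and 0.84 ± 0.14 at 1 h (adjusted p 0.0818). At an unadjusted p under 0.05, 20 members were higher at 1 h of ANG and 15 at 5 h, beside 3.33% and 3.57% of all genes. With EGF they were 25 at 1 h and 22 at 5 h, beside 4.34% and 5.07% of all genes. The median log2 difference from mock over the members was 0.65 and 0.55 at 1 and 5 h of EGF and 0.52 and 0.48 at 1 and 5 h of ANG, while that of all genes lay between -0.17 and -0.12. At 24 h the medians were 0.03 for EGF and -0.14 for ANG, with no call of any gene and, at an unadjusted p under 0.05, 0 members higher or lower after EGF, beside 1.54% of all genes higher and 5.62% lower. After ANG 2 members were lower at that p, beside 0.231% of all genes. All of these share the 2 mock libraries.

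Taken library by library, with no test, the members at least 1.5-fold above the mock of their line numbered 6 after 1 h and 8 after 5 h of EGF in Panc-1, where 8.32% and 8.66% of all genes were as high. After ANG they numbered 5 at 1 h and 3 at 5 h in Panc-1, beside 8.56% and 8.19% of all genes. In AsPC-1 they numbered 30 after 1 h and 30 after 5 h of EGF, beside 12.1% and 12.4% of all genes, and 26 after each of these times of ANG, beside 10.6% and 10.7%. The counts out of 42 lay nearer to the share of all genes in Panc-1 than in AsPC-1. At 24 h 1 member reached 1.5-fold in AsPC-1 after EGF, where 5.47% of all genes did. None did in the other 3 libraries of 24 h, where 3.95% (Panc-1 with EGF), 3.4% (Panc-1 with ANG) and 2.77% (AsPC-1 with ANG) of all genes did.

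Most members were slightly higher with EGF than with ANG at the same time and in the same line, and none of these differences passed the threshold. Over the 6 pairs of line and time no member passed in either direction, where 0.142% of all genes were higher with EGF and 0.0149% lower. At an unadjusted p under 0.05 the limma fit gave 18 members higher with EGF, beside 8.49% of all genes. The differences nearest to the threshold were those of LYAR (0.33 ± 0.07, limma adjusted p 0.112), RRP12 (0.53 ± 0.11, adjusted p 0.119), DDX21 (0.35 ± 0.07, adjusted p 0.123), NOB1 (0.25 ± 0.06, adjusted p 0.136) and POLR1E (0.31 ± 0.08, adjusted p 0.158). The median was 0.13 over the members and -0.02 over all genes, and the sign was positive for 40 of the 42. With genes under 400 bp left out and libraries rescaled, the median of the members was 0.07 over the pairs, 0.02 at 1 h and 0.05 at 5 h, and that of all genes over the pairs -0.06.

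EGF was above ANG in all 6 pairs for 14 members, against 5.62% of all tested genes. They came from every role group but the box C/D proteins, and were POLR1E, DKC1, NHP2, NOLC1, LYAR, WDR43, UTP15, BYSL, PNO1, NOB1, RRP12, NOP2, DDX21 and GPATCH4. A 1.5-fold gap was rare: RRP12 had it in Panc-1 at 1 h (86.6 RPKM with EGF, 42 RPKM with ANG, where 1.53% of all genes had it) and at 5 h (77.3 RPKM with EGF, 48.2 RPKM with ANG, beside 1.61%). At 24 h NOP16, a large subunit factor, had it in Panc-1 (41.3 RPKM with EGF, 25.8 RPKM with ANG, where 2.57% of all genes had it). In AsPC-1 no member had it at 1 or 5 h (1.88% and 2.14% of all genes did), and 6 had it at 24 h, namely RRP9, RRP12, POLR1E, BOP1, DDX21 and NOP16, where 3.87% of all genes did. DDX21 then had 95.3 RPKM with EGF and 61.4 RPKM with ANG, against 70.8 RPKM in mock. Most members had their lowest value in the library of 24 h of ANG, in Panc-1 and in AsPC-1 alike. Among these were all 6 members named for AsPC-1, so the gaps at 24 h rest on those libraries of ANG too. Genes under 400 bp took 16.3% of the reads of 24 h of ANG in Panc-1, the most in that line. They took 5.06% of those of 1 h of EGF, the least in Panc-1. In AsPC-1 they took 5.25% at 5 h of EGF, the least in that line, and 17.1% at 5 h of ANG, the most. The count of 14 members above was not repeated with rescaled libraries. By time, the limma differences between EGF and ANG had a median over the members of 0.08 at 1 h, 0.14 at 5 h and 0.17 at 24 h, with no member past the threshold at any of the 3 times (0.0223% of all genes were higher with EGF at 1 h, and no gene passed in either direction at 5 or 24 h) and 2, 2 and 3 higher at an unadjusted p under 0.05, beside 0.834%, 0.901% and 1.39% of all genes. The medians by time rest on single libraries. At 1 h the median was -0.03 without the Panc-1 library of ANG and -0.01 without the AsPC-1 library of EGF, at 5 h it was -0.05 without the AsPC-1 library of EGF, and at 24 h it ran from 0.07 to 0.36.

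**Figure D4:**
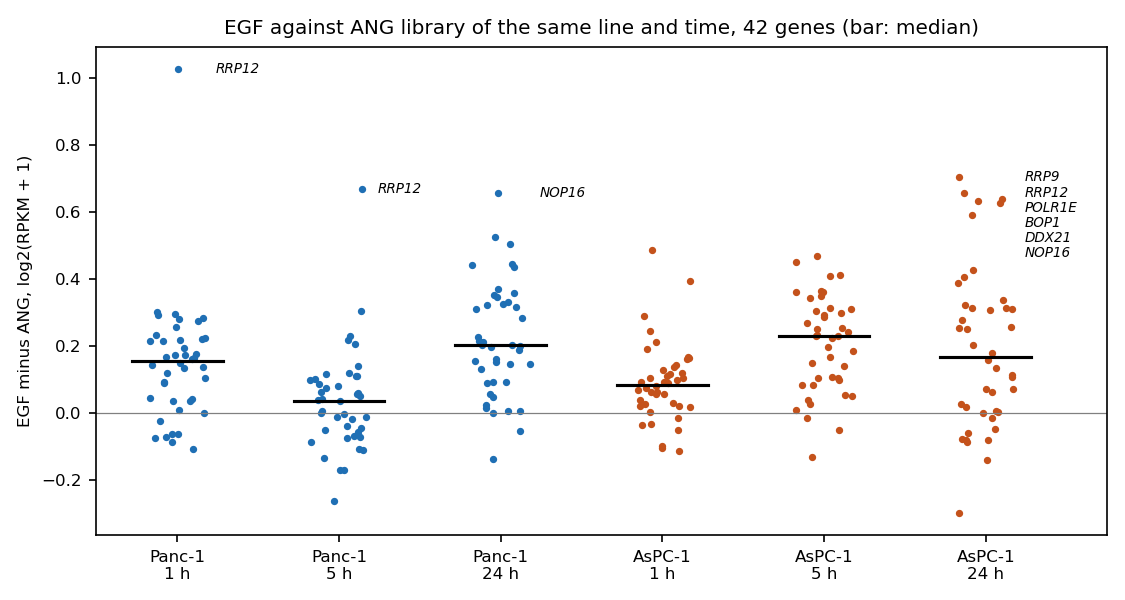
Log2 difference between EGF and ANG for each member (log2 of RPKM + 1) in the 6 pairs of line and time, with 1 point a member. The bars are the medians of the 42 members. All 6 medians lie above 0, RRP12 stands highest in Panc-1 at 1 and 5 h, and 6 named members stand apart in AsPC-1 at 24 h.

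Within the 4 courses of line and ligand, none of which uses mock, 20 members were lower at 24 h than at 1 h and none was higher, where 2.92% of all genes were lower and 3.44% higher. The median of the members was -0.62 and that of all genes 0.04. METTL1 (-0.96 ± 0.08, limma adjusted p 0.00388), GPATCH4 (-0.91 ± 0.09, adjusted p 0.0043), RRP12 (-1.18 ± 0.15, adjusted p 0.0114) and LYAR (-0.86 ± 0.11, adjusted p 0.0114) led by p, and NOP56 had the largest fall (-1.21 ± 0.25, adjusted p 0.0323). Also lower were DKC1, GAR1 and NOP58 of the small nucleolar ribonucleoproteins, NCL and NOLC1 of the scaffold group, 5 of the 8 processome genes (UTP15, UTP20, WDR43, NAT10 and HEATR1), BYSL, TSR1, PPAN, PES1 and DDX21. None of the 7 genes of RNA polymerase I and its factors passed, and their values ran from -0.54 to -0.23. The count was 3 without either Panc-1 library of 1 h, 6 without the AsPC-1 library of 1 h of EGF and 2 without that of 1 h of ANG, and 13 with no filter on low values. The count of all genes lower fell with it, to 5 without the Panc-1 library of 1 h of ANG, 7 without that of EGF, 66 without the AsPC-1 library of EGF and 7 without that of ANG, against 392.

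Over the 7 conditions, Panc-1 and AsPC-1 also differed in the standing level of the module. In Panc-1 4 members were higher and 26 lower than in AsPC-1, where 39.6% of all genes were higher and 29.3% lower, and the median was -0.41 over the members and 0.13 over all genes. All 8 processome genes and all 7 large subunit genes were lower in Panc-1. POLR1E was the clearest exception, with a mean level of 56.6 RPKM in Panc-1 against 20.5 RPKM in AsPC-1 (1.44 ± 0.08, limma adjusted p 7.51e-07). UBTF (means 37.4 and 24.5 RPKM), RRN3 (28.9 and 23.3 RPKM) and NPM1 (207 and 172 RPKM) were the others higher in Panc-1. POLR1B averaged 10.8 RPKM in Panc-1 against 28.6 RPKM in AsPC-1 (-1.27 ± 0.19, adjusted p 0.000323), and NAT10 differed by -0.84 ± 0.07 (adjusted p 6.54e-06). By these means POLR1E stood above POLR1B in Panc-1 and below it in AsPC-1, on the RPKM scale. With libraries centred on their medians, or without those of 24 h, 2 of the 4 were still higher. Since 4 of the 7 conditions were those of 1 and 5 h, these means hold the larger AsPC-1 difference at those times as well.

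Of 87 other genes of the same pathway, taken from a list of further polymerase I, processome and subunit assembly factors, 34 rose and 6 fell at 1 and 5 h in Panc-1 (median 0.16), where 17% of all genes rose and 20.6% fell (median -0.03). In AsPC-1 65 rose and 5 fell (median 0.55), where 19.9% of all genes rose and 34.8% fell (median -0.07). Between the lines 44 differed below 0 and 9 above 0 (median -0.38), where 21% of all genes were below and 28.2% above (median 0.05). RRS1, an assembly factor of the large subunit, averaged 32.7 RPKM at 1 and 5 h and 7.53 RPKM in mock and at 24 h in AsPC-1, and NOL6, of the processome, 74.3 and 19.9 RPKM. Against mock 1 of the 87 rose at 1 h of EGF (EBNA1BP2), beside 0.209% of all genes, and 6 at 5 h, among them PAK1IP1, RIOK1, RPF2, NIP7 and BRIX1, beside 0.596%. Between 24 h and 1 h 25 were lower and none higher (median -0.36), where 2.92% of all genes were lower and 3.44% higher (median 0.04). The largest difference between the lines among the 87 was that of FBL, the methyltransferase that works with NOP56 and NOP58, with mean levels of 1340 RPKM in Panc-1 against 64.9 RPKM in AsPC-1 (log2 4.35 ± 0.07, limma adjusted p 8.53e-10).

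MYC had 55.2 RPKM in mock, 114, 99.4 and 75.2 RPKM after EGF, and 78.2, 65.9 and 55.4 RPKM after ANG in Panc-1. In AsPC-1 it had 153 RPKM in mock, 278, 411 and 173 RPKM after EGF, and 303, 342 and 142 RPKM after ANG. The difference between 1 and 5 h and mock and 24 h was 0.51 ± 0.18 in Panc-1 (limma adjusted p 0.0442), where the library of 24 h of EGF overlapped that of 5 h of ANG, and 1.08 ± 0.18 in AsPC-1 (adjusted p 0.000222), where the groups did not overlap. Panc-1 minus AsPC-1, that difference was -0.58 ± 0.26 (limma adjusted p 0.0826), and the level of MYC was lower in Panc-1 than in AsPC-1 (means 77.6 and 257 RPKM). EGR1, an immediate early gene of EGFR signalling, had 29.1 RPKM with EGF and 1.49 RPKM with ANG at 1 h in Panc-1, and 42.4 RPKM with EGF and 4.07 RPKM with ANG in AsPC-1. At that time the median log2 difference of the 42 members from mock came to 0.32 in Panc-1 and 0.88 in AsPC-1 with EGF and to 0.18 and 0.84 with ANG, while that of 14 immediate early genes came to 1.97 in Panc-1 and 1.93 in AsPC-1 with EGF and 0.13 and 0.12 with ANG.

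**Figure D5:**
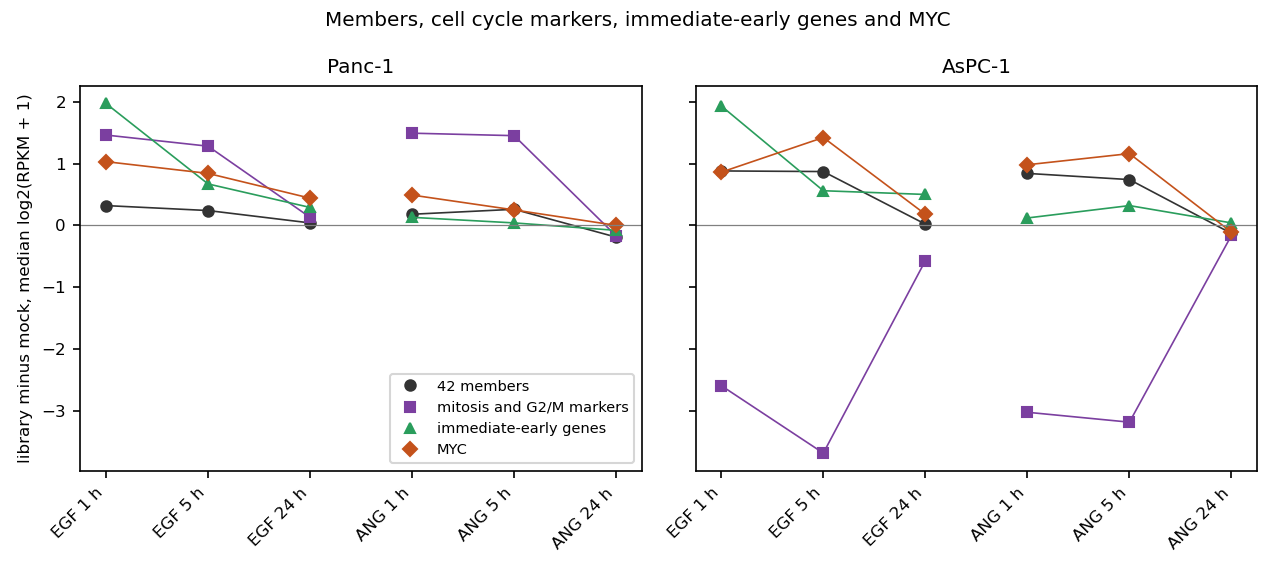
Median log2 difference of RPKM + 1 from the mock of the same line in each library, for the 42 members, the 20 G2 and M markers, the 14 immediate early genes and MYC alone. The members lie above 0 at 1 and 5 h of both ligands. Their medians at 24 h are close to 0 for EGF (Panc-1 0.04, AsPC-1 0.02) and below 0 for ANG (Panc-1 -0.19, AsPC-1 -0.13). The immediate early genes are highest at 1 h of EGF, and the G2 and M markers at 1 and 5 h lie above 0 in Panc-1 and below it in AsPC-1.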

How the data were processed

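Total RNA of 14 libraries was analysed from the processed files, 1 per library, which list 23040 genes as log2 RPKM, a scale the authors chose, per the file headers. Their coordinates are in hg19, per the submitters' processing notes. Aligner, counter, annotation and use of strand: not given in the sources used here. Log2 values were turned back to RPKM, and the floor of -8.966 was read as 0. Groups came from the labels, and 0 columns were left without a sample.

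Tests used limma 3.58.1 (trend) in R 4.3.3 on log2(RPKM + 1), over the 13427 genes that reached 1 RPKM in 2 or more libraries, with Benjamini-Hochberg adjustment over all of them and a threshold of 0.05. A fold change on this scale understates that of low genes. Conditions were compared with mock, and the lines with each other, in an additive model of line and condition. EGF was set against ANG in the 6 pairs of equal line and time, and 24 h and 1 h within 4 courses of line and ligand. The libraries of 1 and 5 h were compared with mock and 24 h within each line, where ligands and times count as repeats, and between the lines as an interaction.

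The members, the gene lists and the grouping of times were chosen with earlier results of these data known. Values in every library are given for the 2 members of each role with the largest mean difference from mock at 1 and 5 h of EGF, for members past the threshold against mock or between ligands, and for POLR1A, POLR1B, UBTF, RRN3, NCL, NPM1 and NOP56. NHP2 was added after its values were seen, as were MXD4 and MXI1 below. Other pathway genes are the up to 4 of each list with the largest change among those past the threshold. The procedure was tested on simulated data. The result of 1 marker gene is not reported here. Alternatives were another pseudocount (0.1), no filter on low values, a filter of 5 RPKM, centring of libraries, leaving out genes under 400 bp, and leaving out single libraries, and, chosen after seeing the data, leaving out the libraries of 24 h or both of mock.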

Additional observations from a re-analysis of the deposited data

Results flagged for a closer look

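For 29 of the 42 members the difference between 1 and 5 h and mock and 24 h itself differed between the lines, by the interaction term of the limma fit at an adjusted p under 0.05, where 28.2% of all tested genes were called above 0 and 21% below. Values are the log2 difference in Panc-1 minus that in AsPC-1. Among RNA polymerase I and its factors they were -0.54 for POLR1A, -1.03 for POLR1B, -0.35 for POLR1C, 0.47 for UBTF, -0.39 for RRN3 and -0.41 for TAF1D. NOP56 had -1.15, DKC1 -0.46 and NHP2 0.94. In the scaffold group NOLC1 had -0.64, GNL3 -0.81 and MYBBP1A -1.40. Of the processome, RRP9 had -1.14, WDR43 -0.57, WDR75 -0.65, UTP20 -0.84, UTP15 -0.40, HEATR1 -0.34 and NOP14 -0.32. In late small subunit maturation BYSL had -0.80, TSR1 -0.77 and PNO1 -1.31. For the large subunit, PES1 had -0.49, NOP2 -1.74, NOP16 -0.71, PPAN -0.67 and RRP1B -1.04. The helicases DDX21 and DDX10 had -0.95 and -0.79. The 2 positive values belong to the members that were raised in Panc-1 (UBTF) or lowered in AsPC-1 (NHP2).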

How the results depend on the processing

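The 151 calls of single members were recomputed 3141 times under the alternatives that apply to them. The call stood in 2711 of these and was lost in 430, and no direction reversed. Of 4 members higher at 1 h of EGF, 2 were called with no filter, 1 with centred libraries and 0 without the libraries of 24 h. Of 20 lower at 24 h than at 1 h, 13 were called with no filter. With a filter of 5 RPKM 1 member was higher at 5 h of ANG, against 0. Of 4 higher in Panc-1 than in AsPC-1, 2 were called with centred libraries and 2 without those of 24 h. At 1 and 5 h in Panc-1, 2 members were lower with genes under 400 bp left out, against 0, and 11 were higher without the libraries of 24 h, against 24. The interaction then had 1 above 0, against 2. The cause was not tested.

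Leaving out 1 library at a time gave 0 to 2 higher at 1 h of EGF, 0 to 6 at 5 h of EGF, and 2 to 23 lower at 24 h than at 1 h. It gave 14 to 26 higher and 0 to 1 lower at 1 and 5 h in Panc-1, 36 to 38 higher and 1 lower in AsPC-1, 21 to 27 below 0 and 2 above 0 in the interaction, and 3 to 4 higher and 21 to 28 lower between the lines. Centring moved the all-gene median at 1 h of EGF to 0.03, against -0.12, and at 5 h to 0.05, against -0.16. All genes higher and lower then numbered 19 and 16 at 1 h, against 28 and 61, and 72 and 95 at 5 h, against 80 and 487. For 1 and 5 h in AsPC-1 they numbered 4456 and 3503, against 2676 and 4671, and for the interaction 3063 and 4207, against 3784 and 2826. The median of the members kept its direction, at 0.80 and 0.76 for EGF at 1 and 5 h, 0.31 in Panc-1, 1.10 in AsPC-1 and -0.64 for the interaction. No condition was repeated within a line, which limits every comparison, and every member lay far above the value of 1 read.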

Other observations

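Of 22 genes of RNA polymerase III, which makes transfer RNA and the smallest ribosomal RNA, 7 rose and 2 fell at 1 and 5 h in Panc-1 (median log2 difference 0.08), where 17% of all genes rose and 20.6% fell. In AsPC-1 9 rose and 4 fell (median 0.15), where 19.9% of all genes rose and 34.8% fell. In AsPC-1 the paralogous subunits POLR3G and POLR3GL moved apart. POLR3G averaged 9.73 RPKM at 1 and 5 h and 3.05 RPKM in mock and at 24 h (log2 1.42 ± 0.13, limma adjusted p 1.09e-06), and POLR3GL averaged 11.5 and 18.6 RPKM (log2 -0.61 ± 0.16, adjusted p 0.00422). MAF1, the repressor of the polymerase, was lower at 1 and 5 h in both lines, with means of 36.8 and 49.6 RPKM in Panc-1 (-0.42 ± 0.08, limma adjusted p 0.000873) and 44.6 and 88.5 RPKM in AsPC-1 (-0.97 ± 0.08, adjusted p 3.44e-07). It was higher at 24 h than at 1 h over the 4 courses (0.71 ± 0.14, adjusted p 0.0262).

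MXD4 and MXI1, known antagonists of MYC that bind the same CACGTG sequence, fell against mock at 1 h of EGF, MXD4 by 1.46 (limma adjusted p 0.0259) and MXI1 by 1.26 (adjusted p 0.048). Both were also lower at 5 h of EGF, by values of -1.47 for MXD4 (adjusted p 0.0132) and -1.15 for MXI1 (adjusted p 0.0287). At 1 h of ANG they were at -1.22 (adjusted p 0.0503) and -1.04 (adjusted p 0.0993), neither past the threshold. These 2 genes were picked after their values were seen, and their part in the results on ribosome biogenesis was not tested. Without the libraries of 24 h no gene at all was called at 1 h of EGF, so the 2 calls of that time rest on them. Of all tested genes 0.454% fell at 1 h of EGF, 3.63% at 5 h of EGF and 0.0819% at 1 h of ANG.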
